A study of Mus musculus with 2 samples.

Results

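Cycling tumor macrophages were the barcodes of 2 single-cell RNA libraries that held transcripts of the complement component C1q together with transcripts of dividing cells. A barcode was a gated macrophage when it had at least 200 genes, over 500 UMIs (unique molecular identifiers, each a captured RNA molecule), under 10% of UMIs from mitochondrial genes and at least 3 UMIs of C1qa, C1qb and C1qc together. S100a8 and S100a9, the neutrophil alarmins, had to stay under 1% of its UMIs, the carcinoma transcripts Krt8, Krt18 and Rhox5 under 3 UMIs together, and the lymphocyte transcripts Cd79a and Cd3e at 0. Cycling cells were chosen by measured counts: a gated macrophage was cycling when Mki67, Top2a, Ube2c and Birc5 summed to at least 3 UMIs, a sum called the cycling sum here. By this rule 51 of 6630 barcodes were cycling macrophages, 50 from the Smad3-WT library and 1 from the Smad3-KO library, out of 396 gated macrophages. The 280 gated Smad3-WT macrophages with a cycling sum of 0 were the non-cycling cells, and 41 more had a sum of 1 or 2.

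The libraries came from subcutaneous Lewis lung carcinoma (LLC) tumors, a transplanted mouse lung cancer line, in mice labelled C57BL/6 (C57BL/6 J background in the study's methods) aged 8 to 12 weeks. The mice of one group were Smad3-wildtype (Smad3+/+, Smad3-WT) and those of the other were Smad3-deficient (Smad3-/-, Smad3-KO), lacking a transcription factor of the TGF-β pathway. Tumors of each group were mixed and their CD11b+Ly6G+ cells were sorted and made into 1 library, so that mice could not be told apart and no difference between genotypes could be tested. The sort aimed at neutrophils, and the macrophages described here are cells that came through it. The Smad3-WT library held 4116 barcodes with 23951400 UMIs and the Smad3-KO library 2514 barcodes with 4214290 UMIs.

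Macrophages are the resident and recruited phagocytes of tissues. Those of tumors come largely from blood monocytes, and some divide within the tissue, often under the growth factor Csf1 and its receptor Csf1r. A dividing cell copies its DNA with Mcm helicases, Pcna and newly made histones (S phase), then condenses its chromosomes and pulls them apart on a spindle (mitosis), and the anaphase-promoting complex clears cyclins at the end. Mki67 coats mitotic chromosomes and Top2a untangles DNA. Ube2c is a ubiquitin-conjugating enzyme that works with the anaphase-promoting complex, and Birc5 is a subunit of the chromosomal passenger complex.

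The macrophage label was checked on genes other than the C1q genes that chose the cells. Csf1r and Adgre1 (the F4/80 antigen), named after their values were seen, were at 244 and 171 CPM (UMIs of a gene scaled to a total of 1000000) in the 50 cycling Smad3-WT cells. The same transcripts, Csf1r and Adgre1, were at 380.2 and 148 CPM in the 280 non-cycling cells and at 50.5 and 18.3 CPM in 1011 neutrophil-type barcodes of the same library, those with at least 5% of UMIs from S100a8 and S100a9 and none from the carcinoma and lymphocyte genes of the gate. At least 3 C1q UMIs occurred in 4 of those 1011 barcodes (0.396%) and a cycling sum of 3 in 0. Their median depth was 759 UMIs, so these shares do not give the background at the depth of the cycling cells. C1qa, C1qb and C1qc were at 17.2, 56.9 and 23.6 CPM in those barcodes. The lowest C1q sum of a cycling macrophage was 3 UMIs, in cells of 19213, 10765 and 3982 UMIs. The deepest of these also held 21 UMIs of the 10 carcinoma markers named below, the most of any cycling macrophage, and the others held 0. The part of background C1q in that cell was not tested. Ly6g, the target of the sort, was at 0 UMIs in the 50 cycling macrophages. The 7-gene neutrophil list, Ly6g included, stood at 529.7 CPM in cycling and 505 CPM in non-cycling cells, with G0s2 the most abundant at 123 UMIs. Lists of natural killer, endothelial and mast cell genes were at 0 UMIs in the cycling cells. The 6-gene T cell list was higher in cycling cells, with 10 UMIs against 8, 18.8 against 5.20 CPM or a ratio of 3.61 (1.28 to 10.5), and Cd3d was its most abundant gene at 3 UMIs. Without cells that held any UMI of the 10 carcinoma markers its ratio was 4.68 (1.60 to 13.9). At equal depth, that is with non-cycling cells weighted to the depth of the cycling ones, the list was at 18.8 against 0.624 CPM. That ratio of 30.1 has no interval and rests on at most 8 non-cycling UMIs, so its size is uncertain. The part of T cell transcripts in the values below was not tested. The 5-gene B cell list had 10 UMIs against 52, or 18.8 against 33.8 CPM, and in cycling cells all were of Ighm. The 8-gene dendritic list had 24 UMIs against 46, a ratio of 1.51 (0.880 to 2.52) and of 0.238 (0.0277 to 0.926) without cells that held carcinoma UMIs, with Flt3, Xcr1, Ccr7 and Siglech at 0 in cycling cells.

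LLC cells were the larger source of cycling barcodes in the Smad3-WT library, and their transcripts were followed through the gate. Of 3902 Smad3-WT barcodes within the quality limits, 519 had a cycling sum of at least 3, and 265 of these were the carcinoma cells described below. Among the 136 cycling barcodes with at least 3 C1q UMIs, 81 were refused for Krt8, Krt18 and Rhox5, and their median depth was 21579 UMIs. Of 367 C1q barcodes with a cycling sum of 0, 19 were refused on that ground. Most dividing barcodes with C1q UMIs thus carried carcinoma transcripts and were left out.

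Among the 50 cycling macrophages kept, 31 had no UMI of 10 carcinoma markers (Krt8, Krt18, Rhox5, Wfdc2, Cav1, Krt7, Krt19, Epcam, Tm4sf1 and Cald1) and 19 had some, at most 21 UMIs in a cell. Of the 280 non-cycling cells 230 had none. The 7 markers outside the gate summed to 237 CPM in cycling macrophages, 92.3 CPM in non-cycling macrophages and 1115 CPM in 265 cycling carcinoma cells. Krt7, Krt19 and Epcam were at 0 in the cycling macrophages and Cald1, an actin-binding protein, was the most abundant with 63 UMIs. Cav1 had 33 UMIs. Cycling carcinoma cells held Cald1 at 375 CPM and Cav1 at 237 CPM. Whether fibroblast RNA gave part of these UMIs in the macrophages was not tested. Weighting the non-cycling macrophages to the depth of the cycling ones gave them 247 CPM of these markers. From the shallowest to the deepest of the 5 depth classes used for this, cycling cells held 0, 234, 115, 184 and 395 CPM and non-cycling cells 34.6, 63.9, 50, 398 and 378 CPM. The cycling cells were higher in 3 classes and lower in 2, and the deepest 2 classes held 11 and 4 non-cycling cells. Fibroblast genes, mostly collagens, occurred largely in the same cells. The 7-gene list held 830 UMIs (3212 CPM) in the 19 cycling cells with carcinoma UMIs and 0 in the other 31. Of these 19 cells 11 held any, and 1 held 317 UMIs. The 50 non-cycling cells with carcinoma UMIs held 2045 UMIs (5131 CPM) of the list. The 230 without held 307 UMIs (269 CPM) in 12 cells, 287 of them in 1 cell. The summed ratios of lists are therefore also given without cells that held any UMI of the 10 carcinoma markers, an alternative added after these values were seen, and the part of mixed droplets in what remains was not tested.

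Barcode sequences were shared between the libraries in 73 cases, where the Smad3-WT barcode had a median of 41531 UMIs and the Smad3-KO barcode 607. None of the 50 Smad3-WT cycling macrophages was among them. The single Smad3-KO cycling macrophage was, with 18267 UMIs in its own library and 865 UMIs in the Smad3-WT library. Without shared barcodes the Smad3-KO library had 0 cycling cells of 24 gated macrophages.

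In the Smad3-WT library 50 of 371 gated macrophages cycled, 13.5% with an exact binomial (Clopper-Pearson) 95% interval of 10.2 to 17.4%. In the Smad3-KO library it was 1 of 25, 4% with an interval of 0.101 to 20.4%. Like all intervals given here, these cover counting error only. Smad3-WT macrophages were also read more deeply, with a median of 5622 UMIs against 2305. Thinned to 2000 UMIs per cell, at least 3 cycling UMIs remained in 12 of 333 Smad3-WT macrophages (3.60%, 1.88 to 6.21%) and in 0 of 13 Smad3-KO macrophages (an interval of up to 24.7%). Thinning left out 38 and 12 shallower cells. With 1 library per genotype, a difference between genotypes in the share of cycling macrophages was not tested.

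The share of cycling cells differed with depth. Smad3-WT macrophages were divided into 5 groups by UMIs per cell, and cycling cells were 2 of 74 in the shallowest group (509 to 3275 UMIs), 3, 5 and 11 of 74 in the next, and 29 of 75 in the deepest (8662 to 26087 UMIs). The shallowest group was at 2.70% and the deepest at 38.7%. The summed level of the 4 cycling genes, which needs no limit per cell, was at 123, 77.4, 112, 171 and 459.7 CPM in the same order, highest in the deepest cells. Cycling macrophages had a median of 9314 UMIs and 2835 genes, those with a sum of 1 or 2 had 6791 UMIs and 2139 genes, and non-cycling macrophages had 5029.5 UMIs and 1802 genes. Cells with carcinoma marker UMIs were deeper than cells without, at medians of 12674 against 8081 UMIs in cycling and 7745 against 4762 UMIs in non-cycling macrophages. A larger RNA content of dividing cells, easier detection in deeper cells and mixed droplets cannot be told apart here.

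**Figure D1:**
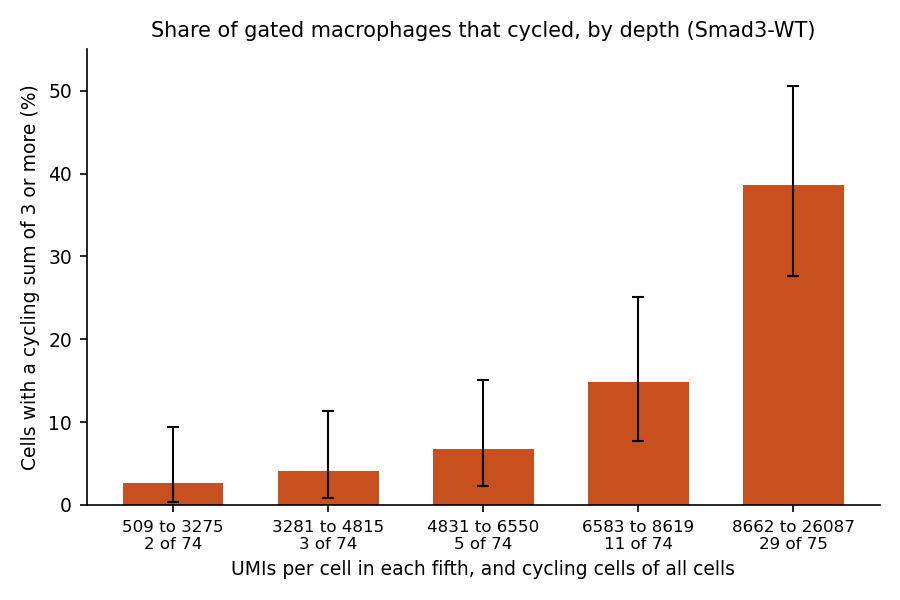
Percent of gated Smad3-WT macrophages with a cycling sum of at least 3 UMIs (vertical axis) in 5 groups of cells by UMIs per cell (horizontal axis, with the cycling and all cells of each group). Error bars are exact binomial 95% intervals, and the deepest cells reach 38.7% against 2.70% in the shallowest.

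The genes of the rule give the size of the signal that chose the cells. Across the 50 Smad3-WT cells Ube2c had 188 UMIs, Birc5 170, Top2a 141 and Mki67 63. Birc5 was found in 47 cells, Top2a in 40, Ube2c in 37 and Mki67 in 30, and the highest count in a cell was 21, of Ube2c. Just inside the limit were 5 cells with a sum of 3 and 6 with a sum of 4, and just outside were 8 cells with a sum of 2. In these cells, in the order of sums 2, 3 and 4, the replication and histone lists described below stood at 1272, 2134 and 2419.6 CPM, compared with 4726 CPM in the 39 cells with a sum of 5 or more. The histone transcript Hist1h2ap was at 66.7 CPM in the cells with a sum of 3, below the 136 CPM of the cells just outside, and at 416 and 1801 CPM in the cells with a sum of 4 and of 5 or more. Cells at the limit thus carried less of the S-phase transcripts than cells with larger sums.

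For every other gene the UMIs of the 50 cycling cells (532334 in all) were summed and compared with those of the 280 non-cycling cells (1538532 in all). Of 4800 genes with at least 50 UMIs in both groups together, 3.85% (185 genes) were at least 2-fold higher in CPM in cycling cells, 3.98% (191 genes) were at least 2-fold lower, and the median ratio was 0.980. The split was 156 higher and 259 lower with median-of-ratios scaling, and 277 higher and 160 lower when the non-cycling cells were weighted to the depth of the cycling ones in 5 depth classes, the deepest of which held 4 non-cycling cells. The cells of each group came from 1 library, so no gene was tested, and each ratio below has an exact binomial 95% interval in parentheses. A cell cycle gene that is near 0 in non-cycling cells reaches 50 UMIs only through the cycling cells. The cells were also chosen on 4 cell cycle genes, so the values of other cell cycle genes in the same cells are descriptions. Lists are therefore given first by the summed UMIs of all their members, and the members with 50 UMIs are given as a description. Counts of members 2-fold higher or lower are to be read beside the shares of all genes, 3.85% and 3.98%.

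Among genes with at least 200 UMIs in both groups together, Hist1h2ap, Pclaf and Stmn1 had the highest ratios. Genes with fewer UMIs, such as Rrm2 and Ccna2, reached ratios as high and are given with their lists. Hist1h2ap, a replicative histone of the H2A family, was at 1523 against 27.9 CPM, a ratio of 54.5 (40.1 to 75.9). It had a UMI in 44 of 50 cycling cells, with 0, 7.50 and 91 UMIs as the lowest, median and highest cell, and in 1.88% of neutrophil-type barcodes, whose median depth was 759 UMIs against 9314. Its gene belongs to a family of nearly identical copies, so that its share of the family's reads is uncertain. Pclaf, which binds Pcna at the replication fork, was at 363 against 9.10 CPM, a ratio of 39.8 (23.2 to 74.3), with 0, 3 and 16 UMIs as the lowest, median and highest cell. Stmn1, which destabilizes microtubules, was at 458 against 15.6 CPM, a ratio of 29.4 (19.3 to 46.8), with 0, 4 and 15 UMIs in the same order. Cycling cells with 0 UMIs of these 3 overlapped with non-cycling cells. The next gene with at least 200 UMIs, Hmgb2, a DNA-bending chromatin protein, had a ratio of 6.58 (5.42 to 8.03), and neutrophil-type barcodes held it at 441 CPM.

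The other 11 of the 15 highest ratios among genes with at least 200 UMIs lay between 2.67 and 4.61. They belonged to the histone variants H2afv and H2afz, the chromatin proteins Hmgn2, Hmgb1, Dek and Hmgn1, the histone chaperone Nap1l1, the sliding clamp Pcna, the tubulin Tubb5, the nuclear transport GTPase Ran, and Ube2s, a ubiquitin-conjugating enzyme of the anaphase-promoting complex. H2afz was at 2025 against 586 CPM and Tubb5 at 1191 against 357 CPM. Each of the 15 stayed at least 2-fold higher under every alternative run for single genes, and the lowest value was 2.36. Weighted to equal depth, Hist1h2ap had a ratio of 51.7, Pclaf 33 and Stmn1 34.5, and Stmn1 was at 18.2 against cells with a cycling sum of 0 to 2.

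**Figure D2:**
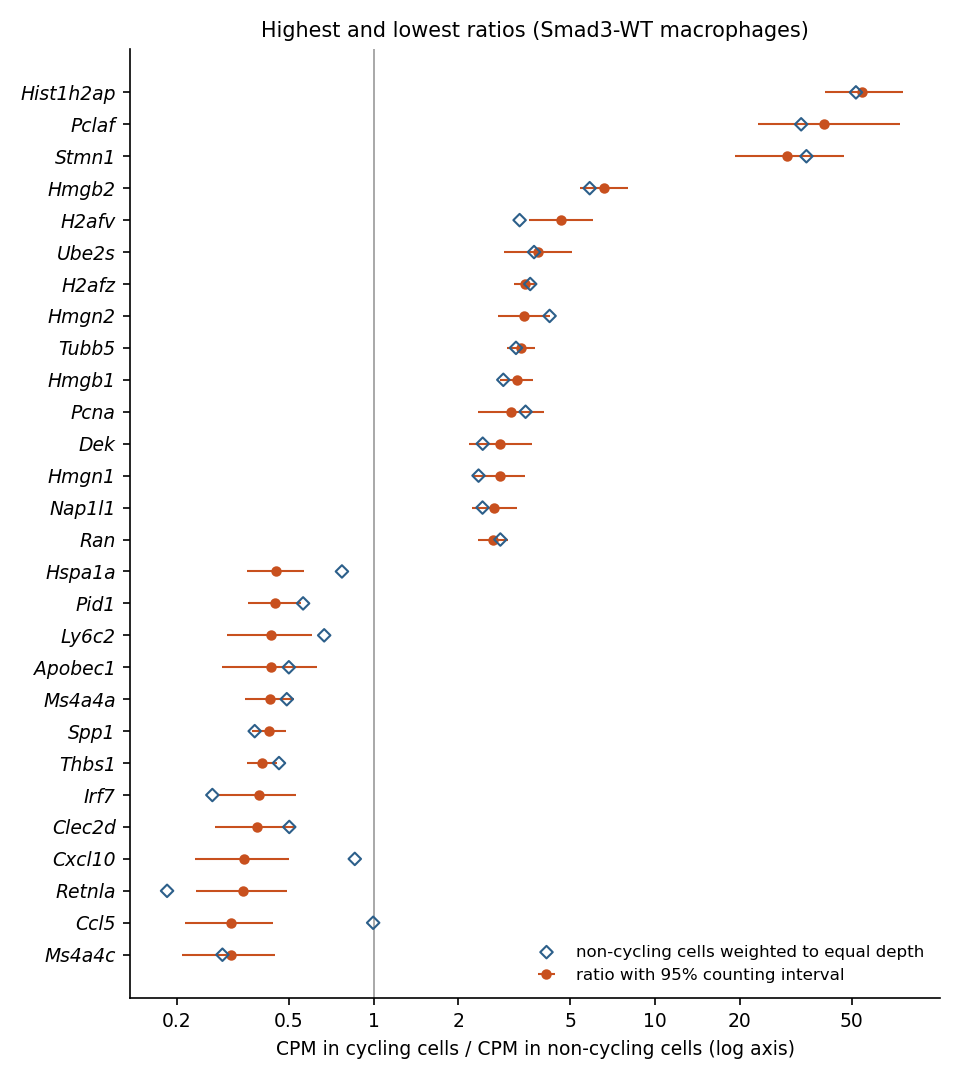
CPM in cycling divided by CPM in non-cycling Smad3-WT macrophages (horizontal log axis) for the 15 highest ratios and 13 of the 15 lowest among genes with at least 200 UMIs (rows). Filled circles with bars are ratios with 95% counting intervals and open diamonds the ratios with non-cycling cells weighted to equal depth. Hist1h2ap, Pclaf and Stmn1 lie above the other plotted genes, and Ccl5 lies at 0.311 unweighted and 0.996 weighted.

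Promoters are shown because cell cycle genes are known to share short upstream motifs, and the genes of the rule and those with the highest ratios were chosen without regard to sequence. RefSeq windows (GRCm38.p6, 250 bases before to 50 after the gene's start) were searched on both strands for TTTGAA, the core of the cell cycle homology region read by the DREAM and B-Myb complexes, for CCAAT, read by NF-Y, and for TTTNGCGC, an E2F site. CCAAT was found in 3 of the 4 genes of the rule, 11 of 13 genes with a window among the 15 highest ratios, 4 of 11 among the 15 lowest and 41.1% of 27025 genes. TTTGAA was found in 3 of the 4 genes of the rule, 3 of 13 genes with a window among the 15 highest ratios, 3 of 11 among the 15 lowest and 20.2% of 27025 genes. TTTNGCGC was found in 0 of the 4 genes of the rule, 1 of 13 genes with a window among the 15 highest ratios, 0 of 11 among the 15 lowest and 1.57% of 27025 genes. Hist1h2ap and Stmn1 had no window in the table used. The 120 bases before the start are printed for the rule genes and for the 4 genes of highest ratio with a window among those with at least 200 UMIs, in the direction of the gene, with matches to TTTGAA or CCAAT on either strand in capitals. On the reverse strand TTTGAA reads as TTCAAA. A reverse match to CCAAT reads as ATTGG.
Top2a, chr11:99024190-99024309, minus strand: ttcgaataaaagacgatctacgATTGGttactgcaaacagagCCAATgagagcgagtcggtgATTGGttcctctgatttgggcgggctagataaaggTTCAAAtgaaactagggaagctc
Ube2c, chr2:164769809-164769928, plus strand: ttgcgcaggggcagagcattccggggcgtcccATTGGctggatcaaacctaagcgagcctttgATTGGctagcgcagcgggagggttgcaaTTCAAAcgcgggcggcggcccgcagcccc
Mki67, chr7:135716380-135716499, minus strand: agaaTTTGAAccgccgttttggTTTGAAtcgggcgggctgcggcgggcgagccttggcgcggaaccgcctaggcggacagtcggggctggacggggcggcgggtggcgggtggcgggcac
Birc5, chr11:117849117-117849236, plus strand: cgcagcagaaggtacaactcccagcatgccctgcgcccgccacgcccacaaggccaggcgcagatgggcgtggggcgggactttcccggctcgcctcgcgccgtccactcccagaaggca
Pclaf, chr9:65890203-65890322, plus strand: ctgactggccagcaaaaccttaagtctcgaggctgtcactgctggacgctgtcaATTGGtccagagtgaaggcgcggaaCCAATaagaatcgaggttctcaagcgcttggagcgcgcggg
Hmgb2, chr8:57511723-57511842, plus strand: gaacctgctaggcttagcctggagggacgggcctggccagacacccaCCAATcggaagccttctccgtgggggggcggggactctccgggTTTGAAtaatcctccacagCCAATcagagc
H2afv, chr11:6444444-6444563, minus strand: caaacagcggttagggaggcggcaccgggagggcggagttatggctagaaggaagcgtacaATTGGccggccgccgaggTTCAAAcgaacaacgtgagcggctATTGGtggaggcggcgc
Ube2s, chr7:4812341-4812460, minus strand: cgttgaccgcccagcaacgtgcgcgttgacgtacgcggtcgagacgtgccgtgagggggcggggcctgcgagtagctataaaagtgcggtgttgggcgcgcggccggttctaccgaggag
Counted from the start, the printed stretch of Top2a holds TTCAAA at -23 to -18 with 3 matches to CCAAT before it, and that of Ube2c holds TTCAAA at -29 to -24 with reverse matches to CCAAT that begin at -88 and -57. H2afv has TTCAAA at -41 to -36 and Hmgb2 has TTTGAA at -30 to -25, each between CCAAT matches. Mki67 has TTTGAA at -116 and -98, farther from the start. Birc5 and Ube2s held none of the motifs in their windows. Such matches describe the sequence and are not measured binding sites.

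Genes of DNA replication were higher in cycling macrophages as a list. The 45 genes of licensing and the replication fork summed to 1916 against 594 CPM, a ratio of 3.23 (2.95 to 3.53), and per cell to a median of 14.2 (1.23 to 64.5) against 4.58 (0 to 47.3) UMIs per 10000. Of the 12 members with 50 UMIs, 9 were at least 2-fold higher, with a median ratio of 3.29 beside 0.980 for all genes. Pcna, the clamp that holds polymerases on DNA, had the most UMIs and a ratio of 3.07 (2.35 to 4.02). Mcm5, a subunit of the replicative helicase, had the highest ratio at 77 against 9.75 CPM or 7.90 (4.28 to 15.4), and Rpa3, of the single-strand binding complex, the lowest at 1.33 (0.786 to 2.20) and at 0.729 at equal depth. Gmnn, which blocks renewed licensing, was at 107 against 30.5 CPM.

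Nucleotide and histone supply followed the same direction. The 26 nucleotide synthesis genes summed to 1713 against 708 CPM, a ratio of 2.42 (2.21 to 2.65), and 9 of 15 members with 50 UMIs were at least 2-fold higher. Rrm2, the S-phase subunit of ribonucleotide reductase, had 76 UMIs against 3, a ratio of 73.2 (24.1 to 363), whereas Nme1, a nucleoside diphosphate kinase with the most UMIs, was at 207 against 197 CPM. The 17 replicative histones summed to 2373 against 288 CPM, a ratio of 8.24 (7.39 to 9.20), and Hist1h2ap gave 811 of their 1263 UMIs in cycling cells. The linker histone Hist1h1c had a ratio of 1.10 (0.735 to 1.61), so that members of the histone list differed widely. The 26 genes of chromatin assembly and histone variants summed to 6924 against 2006 CPM, and 19 of 20 members with 50 UMIs were at least 2-fold higher. Among these H2afx, the variant phosphorylated at DNA breaks, had the highest ratio at 15 (8.58 to 28.1) and Cbx1, a heterochromatin protein, the lowest at 1.76 (1.15 to 2.66).

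Genes of chromosome segregation were higher as well. The 28 centromere and kinetochore genes summed to 1259 against 154 CPM, a ratio of 8.17 (7.04 to 9.52). Cenpa, the centromeric histone, was at 269 against 21.4 CPM or 12.5 (8.53 to 18.9), Cenpf, a kinetochore protein of G2 and mitosis, had 49 UMIs against 4, a ratio of 35.4 (13 to 135), and Zwint, a kinetochore scaffold, the lowest ratio at 1.88 (1.21 to 2.89). The 16 mitotic kinase and checkpoint genes summed to 804 against 130 CPM, a ratio of 6.18 (5.22 to 7.35). Within them the passenger complex subunits Cdca8 and Incenp had ratios of 14.5 (7.69 to 29.5) and 5.53 (3.27 to 9.59), and Bub3, a checkpoint protein, 1.39 (1.02 to 1.89). Condensin and cohesin genes summed to 1041 against 296 CPM, from Smc2, a condensin ATPase, at 17.6 (8.96 to 38.6) to Pttg1, the securin, at 0.989 (0.608 to 1.56). Spindle and microtubule genes summed to 4781 against 1416 CPM, with the tubulin Tuba1b giving the most UMIs and Racgap1, a cytokinesis regulator, at 47 UMIs against 3. Ratios thus ranged widely within these lists, and Pttg1 was near 1.

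Regulators of the cycle were less uniform. The 20 cyclins and their kinases summed to 1537 against 502 CPM, a ratio of 3.06 (2.77 to 3.38), and 4 of 9 members with 50 UMIs were at least 2-fold higher. Ccna2, the cyclin of S phase and G2, had 71 UMIs against 4, a ratio of 51.3 (19.2 to 193), and Cks1b, a kinase subunit, 9.35 (6.31 to 14.2). The G1 cyclins differed from these, with Ccnd1 at 143 against 109.8 CPM or 1.30 (0.978 to 1.71) and Ccnd2 at 0.864 (0.550 to 1.32). Without cells that held carcinoma UMIs Ccnd2 was at 0.396 (0.140 to 0.912). The anaphase-promoting complex list summed to 1351 against 735 CPM, with Ube2s at 3.83 (2.91 to 5.06), the catalytic subunit Anapc11 at 2.15 (1.78 to 2.60), 1.96 with 10 C1q UMIs required, and the subunit Cdc26 at 0.902 (0.613 to 1.30).

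Inhibitors and quiescence genes, 25 in number, summed to 1631 against 1979 CPM, a ratio of 0.824 (0.763 to 0.889) that became 1.07 at equal depth and 0.920 (0.834 to 1.01) without cells that held carcinoma UMIs. Of 13 members with 50 UMIs 2 were at least 2-fold higher and 0 at least 2-fold lower. Cdkn2d, an inhibitor of Cdk4 and Cdk6, had the highest ratio at 116 against 26 CPM or 4.48 (2.96 to 6.84). Btg1, an antiproliferative factor with the most UMIs, was at 453 against 845 CPM or 0.536 (0.465 to 0.615). Cdkn1a, the p53 target p21, was at 0.796 (0.643 to 0.980) before and 1.20 after depth was matched. Neutrophil-type barcodes held Btg1 at 4110 CPM and Cdkn1a at 1216 CPM. E2F and B-Myb factors summed to 513 against 238 CPM, with Tfdp1, the E2F partner, at 2.26 (1.51 to 3.37) and Myc at 2.42 (1.72 to 3.39). Myc was at 1.18 without cells that held carcinoma marker UMIs and at 1.61 at equal depth, and Tfdp1 at 1.85 as the mean over cells. None of the 22 recombination repair genes reached 50 UMIs, and together they had 156 UMIs against 97, or 293 against 63 CPM.

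Without cells that held carcinoma marker UMIs, 31 cycling and 230 non-cycling macrophages remained. The replication list then had a summed ratio of 4.58 (4.10 to 5.11), and 2.72 at equal depth. In the same order of alternatives the ratios were 11 (9.67 to 12.6) and 7.84 for replicative histones, 3.86 (3.63 to 4.09) and 3.29 for chromatin assembly and 2.91 (2.59 to 3.25) and 1.84 for nucleotide synthesis. Segregation lists were at 9.17 (7.60 to 11.1) and 6.93 for centromere and kinetochore, 7.26 (5.92 to 8.94) and 6.61 for mitotic kinases, 4.07 (3.79 to 4.36) and 3.13 for spindle genes and 3.94 (3.38 to 4.6) and 3.75 for condensin and cohesin. Regulators were at 3.14 (2.75 to 3.59) and 2.80 for cyclins and their kinases, 1.90 (1.53 to 2.36) and 1.96 for E2F and B-Myb factors, 1.85 (1.63 to 2.09) and 1.87 for the anaphase-promoting complex and 5.59 (4.06 to 7.73) and 4.04 for recombination repair. Each of these 12 stayed above 1. Nucleotide synthesis, at 2.42 with all cells, fell below 2 at equal depth, and the E2F and B-Myb factors, at 2.16, fell below 2 under both. The ratios of some cell cycle genes moved by more than 1.5 times over the alternatives. Rrm2 ranged from 29.6 to 126, Ccna2 from 21.3 to 86.6, Cenpf from 20.6 to 47.3 and Racgap1 from 23 to 64. Cdca8 ranged from 8.51 to 22.6, Smc2 from 10.7 to 20.6, H2afx from 12.5 to 24.1, Cks1b from 4.21 to 11.5 and Gmnn from 2.26 to 4.65, and each of these 9 stayed above 2.

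Single cells differed in how much of these programs they carried. Replication (licensing and fork genes with the replicative histones) ran from 3.72 to 157 UMIs per 10000 across the 50 cells with a median of 35.6, and mitosis (kinetochore and mitotic kinase genes) from 2.17 to 54.2 with a median of 20.7. In non-cycling macrophages the medians were 7.42 (0 to 65.8) and 2.42 (0 to 31.5). The groups overlapped: 5 of 280 non-cycling cells were above the cycling median for replication and 2 for mitosis, and 9 cycling cells lay above every non-cycling cell on each measure. The highest non-cycling values were 7 replication UMIs in a cell of 1064 UMIs and 4 mitosis UMIs in a cell of 1268 UMIs. Both cells were shallower than the shallowest cycling cell, at 2274 UMIs. Replication UMIs outnumbered mitosis UMIs in 38 of 50 cycling cells and mitosis UMIs outnumbered replication UMIs in 11, compared with 212 and 33 of 280 non-cycling cells. Phases were not called, because depth and free RNA enter such calls.

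**Figure D3:**
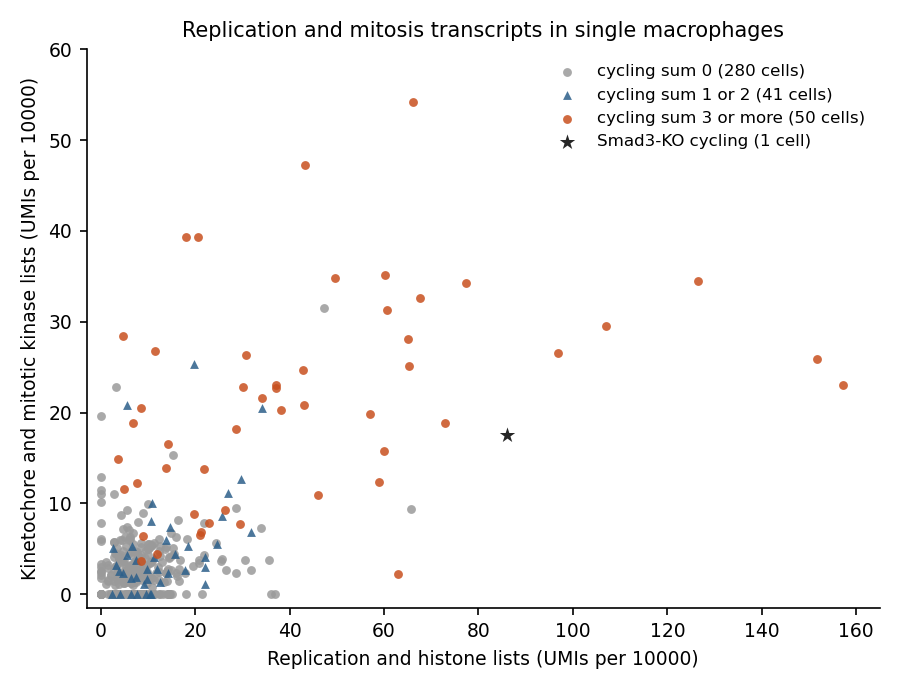
Each point is 1 macrophage, with UMIs per 10000 of the replication licensing, fork and replicative histone lists (horizontal axis) and of the kinetochore and mitotic kinase lists (vertical axis). Cycling cells reach 157 and 54.2, most cells with a cycling sum of 0 lie near the origin, and the groups overlap there.

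Macrophage genes were lower as a list in cycling than in non-cycling cells. The 28 identity genes summed to 25604 against 40388 CPM, a ratio of 0.634 (0.622 to 0.646), and per cell to a median of 247 (75.1 to 601) against 384 (18 to 1068) UMIs per 10000. Of 26 members with 50 UMIs 3 were 2-fold lower and none 2-fold higher, with a median ratio of 0.685. Of all genes compared 3.98% were 2-fold lower and 3.85% 2-fold higher, with a median ratio of 0.980. Lyz2, a lysozyme and the most abundant of them, was at 7467 against 15196 CPM or 0.491 (0.475 to 0.508), and at 0.534 at equal depth. Ms4a7, a membrane protein of macrophages, had the highest ratio at 1.21 (0.990 to 1.46). At equal depth the list had a summed ratio of 0.702, and without cells that held carcinoma UMIs 0.729 (0.712 to 0.746). The C1q genes, which the gate used, were at 1841 against 2022 CPM for C1qa, 2421 against 3303 CPM for C1qb and 1999 against 2249.6 CPM for C1qc. Without cells that held carcinoma UMIs C1qa and C1qc turned above 1, at 1.19 and 1.07, and at equal depth C1qa was at 1.02.

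Monocyte transcripts were lower too. The 12-gene list summed to 1948 against 3714 CPM, a ratio of 0.525 (0.490 to 0.560). Of 10 members with 50 UMIs 5 were 2-fold lower, against 3.98% of all genes compared. Thbs1, thrombospondin 1, was at 564 against 1399 CPM or 0.403 (0.356 to 0.455), but neutrophil-type barcodes held it at 7473 CPM. Chil3, a chitinase-like lectin, had 4 UMIs against 77, with all its cycling UMIs in 1 cell, and its ratio of 0.150 (0.0399 to 0.400) was 0.336 at equal depth. Ly6c2, an antigen of inflammatory monocytes, was at 75.1 against 174 CPM, and F13a1, coagulation factor XIII, at 325 against 320.4 CPM. The list had a summed ratio of 0.640 at equal depth and 0.561 (0.514 to 0.612) without cells that held carcinoma UMIs, and Ly6c2, at 0.433 (0.302 to 0.605) unweighted, ranged from 0.282 to 0.685 over the alternatives.

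Lipid handling and remodelling genes, known from tumor macrophages with a wound-healing profile, summed to 6936 against 11120.3 CPM, a ratio of 0.624 (0.602 to 0.646). Of 19 members with 50 UMIs 5 were 2-fold lower and none was above 1. Of all genes compared 3.98% were 2-fold lower, and their median ratio was 0.980. Spp1, osteopontin, was at 455 against 1068 CPM or 0.426 (0.370 to 0.487), although neutrophil-type barcodes held it at 2143 CPM, and it was at 0.549 without cells that held UMIs of Krt8, Krt18 and Rhox5. Spp1 was not found in fewer of the cycling cells. A UMI was in 68% of cycling and 45.7% of non-cycling cells, or 44% against 37.4% after thinning to 2000 UMIs. The highest cells held 34 and 120 UMIs. Of neutrophil-type barcodes 35.1% had an Spp1 UMI at a median depth of 759 UMIs. The part of background in these shares was not tested. Mmp13, a collagenase, had 3 UMIs against 96, a ratio of 0.0903 (0.0183 to 0.272), and no UMI in the cycling cells without carcinoma UMIs (an interval of up to 0.232). Timp2, a metalloproteinase inhibitor, was at 308 against 313 CPM. The list stood at 0.616 at equal depth and 0.646 (0.616 to 0.678) without cells that held carcinoma UMIs.

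The 15 lowest ratios among genes with at least 200 UMIs held further membrane and secreted proteins. Ms4a4c and Ms4a4a, of the Ms4a membrane family, were at 0.310 (0.208 to 0.448) and 0.427 (0.348 to 0.520), and the lectin Clec2d at 0.385 (0.273 to 0.530). Retnla, a secreted marker of alternative activation, was at 0.344 (0.233 to 0.491), with UMIs in 6 cycling cells and 41.2% of them in 1 cell. Retnla was at 0.692 as the mean over cells, 0.600 without cells that held carcinoma UMIs and 0.185 at equal depth. The RNA editing enzyme Apobec1 was at 0.432 (0.288 to 0.629), Pid1 at 0.445 (0.357 to 0.550) and the heat shock protein Hspa1a at 0.451 (0.356 to 0.565), the last at 0.891 and Pid1 at 0.588 without cells that held carcinoma UMIs. At equal depth 8 of the 15 stayed 2-fold lower and each stayed below 1, with Ccl5 at 0.996 the highest.

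Chemokines differed among themselves. Ccl8 and Ccl12, ligands that attract monocytes, were higher in cycling macrophages, Ccl8 at 3815 against 1975 CPM or 1.93 (1.83 to 2.04) and Ccl12 at 1095 against 567 CPM or 1.93 (1.74 to 2.15). Single cells gave 23.6% of the Ccl8 UMIs and 24.5% of the Ccl12 UMIs of cycling cells. At equal depth the ratios of Ccl8 and Ccl12 were 2.68 and 2.27. Without cells that held carcinoma UMIs they were 1.91 (1.78 to 2.05) and 1.39 (1.19 to 1.62), and as the mean over cells 1.79 and 1.66. In cells with a cycling sum of 1, 2, 3, 4 and 5 or more Ccl8 was at 3479, 2748, 1689, 2122 and 4230 CPM. The 5 cells with a sum of 3 were thus below the non-cycling cells, and those with a sum of 1 or 2 above them. Of cells thinned to 2000 UMIs, among those with a Ccl8 UMI 20.8% (26 of 125, 14.1 to 29%) were cycling and of those without one 11.5% (24 of 208, 7.53 to 16.7%), with median depths of 6925 and 5606 UMIs and a Ccl8 UMI in 1.88% of neutrophil-type barcodes. Ccl2, another monocyte attractant, hardly differed at 2654 against 2587 CPM. Ccl6, the most abundant of the list, was at 6665 against 10948 CPM or 0.609 (0.587 to 0.631). Neutrophil-type barcodes held Ccl6 at 10996.5 CPM. Ccl5, a T cell attractant, was at 67.6 against 218 CPM or 0.311 (0.214 to 0.439) before and 0.996 after depth was matched, and at 0.186 as the mean over cells, with a UMI in 8% against 6.17% of thinned cells.

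Interferon response genes summed to 4459.6 against 6739 CPM, a ratio of 0.662 (0.633 to 0.692). Of 20 members with 50 UMIs 6 were 2-fold lower, against 3.98% of all genes compared. Irf7, a regulator of type I interferons, was at 0.391 (0.283 to 0.529) and at 0.267 at equal depth. Ifi205, of the Ifi200 family, had 6 UMIs against 103, a ratio of 0.168 (0.0604 to 0.379) and of 0.0603 without cells that held carcinoma UMIs. Cxcl9, a T cell attractant, had the highest ratio at 1.08 (0.903 to 1.29), and 1.91 at equal depth. Cxcl10, also a T cell attractant, was at 0.346 (0.232 to 0.501) and at 0.857 at equal depth. The list stood at 0.703 at equal depth and 0.695 (0.655 to 0.738) without cells that held carcinoma UMIs.

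The sums of antigen presentation and of inflammation genes were lower before depth was matched and near 1 after it. The 10 MHC class II presentation genes summed to 12473 against 17706 CPM, a ratio of 0.704 (0.686 to 0.724), with Cd74, the invariant chain, at 0.718 (0.692 to 0.744) and H2-Aa, a class II α chain, at 0.636 (0.594 to 0.681). The list stood at 1.02 at equal depth and 0.865 (0.838 to 0.893) without cells that held carcinoma UMIs, and at equal depth Cd74 was at 1.03 and H2-Aa at 0.971. Per cell the class II list ranged from 0.574 to 983 UMIs per 10000 in cycling and from 0 to 882 in non-cycling macrophages, so that both groups held cells with very little and with much. After thinning to 2000 UMIs, 60% against 55.6% of cells had an H2-Aa UMI, not lower in cycling cells. Unthinned neutrophil-type barcodes had one in 3.46%. Inflammatory genes summed to 4071 against 5257 CPM or 0.774 (0.738 to 0.812) and stood at 1.04 at equal depth and 0.802 (0.752 to 0.855) without cells that held carcinoma UMIs, but their median ratio of 0.698 was 0.889 at equal depth. Tnfaip3, an inhibitor of NF-κB signalling, had the lowest ratio of the list at 5 UMIs against 57, 0.254 (0.0793 to 0.627), or 0.327 at equal depth. Il1b, interleukin 1β, was at 0.697 (0.594 to 0.813). The chemokine Cxcl3 was at 0.993 (0.896 to 1.10), or 0.582 when S100a8 and S100a9 had to stay under 0.5% of UMIs. Neutrophil-type barcodes held Il1b at 9617 CPM and Cxcl3 at 14644 CPM. Immediate early and stress genes summed to 3951 against 5029 CPM or 0.786 (0.748 to 0.824) and stood at 1.04 at equal depth and 0.876 (0.823 to 0.932) without cells that held carcinoma UMIs.

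Energy genes differed by pathway. Glycolysis and hypoxia genes summed to 13820.3 against 19295 CPM, a ratio of 0.716 (0.698 to 0.735). Of 22 members with 50 UMIs 19 were below 1 though none was 2-fold lower. Over all genes compared the median ratio was 0.980 and 3.98% were 2-fold lower, so that few of 22 would be so at that share. Gapdh was at 5081 against 7099 CPM or 0.716 (0.686 to 0.747) and Slc2a1, the glucose transporter, at 73.3 against 133 CPM or 0.550 (0.380 to 0.777). Without cells that held carcinoma UMIs Slc2a1 was at 0.95 (0.612 to 1.43), an interval that includes 1. The glycolysis list stood at 0.743 at equal depth and 0.736 (0.711 to 0.761) without cells that held carcinoma UMIs. The 34 nuclear genes of the mitochondrial respiratory chain summed to 12105 against 11249.7 CPM or 1.08 (1.05 to 1.11), with Uqcrfs1, the Rieske protein, highest at 1.52 (1.20 to 1.91), and their median ratio was 1.07, or 1.01 with median-of-ratios scaling. Their sum stood at 1.07 at equal depth and 1.17 (1.13 to 1.22) without cells that held carcinoma UMIs. Ribosome biogenesis genes summed to 2534 against 1698 CPM or 1.49 (1.40 to 1.59), and Gar1, a protein of small nucleolar ribonucleoproteins, had a ratio of 2.08 (1.32 to 3.26) that fell below 2 at equal depth (1.5) and as the mean over cells (1.90). Without cells that held carcinoma UMIs the ribosome list was at 1.30 (1.19 to 1.43), compared with 1.30 at equal depth, and Gar1 at 1.69. Sterol synthesis genes summed to 472 against 546 CPM or 0.864 (0.747 to 0.996) and stood at 0.991 at equal depth and 0.952 (0.795 to 1.13) without cells that held carcinoma UMIs, the latter an interval that includes 1, with Msmo1, a sterol oxidase, lowest at 10 UMIs against 65, a ratio of 0.445 (0.204 to 0.871) or 0.707 at equal depth.

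None of the 13 growth factor and receptor genes with 50 UMIs, of 18 listed, or of the 10 TGF-β and Smad genes with 50 UMIs, of 25 listed, had a 2-fold ratio, beside 3.85% higher and 3.98% lower of all genes compared, so that few would be so at that share. Among the former Csf2ra, a GM-CSF receptor chain, had the most UMIs at 173 against 269 CPM and Il4ra, the interleukin 4 receptor, the lowest ratio at 0.608 (0.458 to 0.797). The 25 genes of the TGF-β and Smad list summed to 1478 against 1728 CPM, a ratio of 0.855 (0.789 to 0.927), and to a ratio of 1.04 (0.946 to 1.15) without cells that held carcinoma UMIs. At equal depth the summed ratio was 1.07. Smad2, a receptor-activated Smad, was at 17 UMIs against 39, a ratio of 1.26 (0.668 to 2.28) that became 2.09 at equal depth and 2.33 without cells that held carcinoma UMIs. Tgfbi, a secreted matrix protein, was at 0.785 (0.688 to 0.893) and at 1.13 at equal depth, and the receptor Tgfbr2 at 0.713 (0.483 to 1.03). Smad3 itself had 5 UMIs against 16 in Smad3-WT macrophages, 9.39 against 10.4 CPM. The libraries were made with a kit that reads the 5′ end of transcripts, whereas the knockout deletes and disrupts later exons by the study's methods, so Smad3 UMIs do not check the genotype labels.

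Cycling LLC cells of the same library were set beside the macrophages as another dividing population. There 265 barcodes with at least 10 UMIs of Krt8, Krt18 and Rhox5, under 3 C1q UMIs and a cycling sum of at least 3 were compared with 67 at a sum of 0. Of 8699 genes 7.29% were at least 2-fold higher and 2.18% at least 2-fold lower in the cycling carcinoma cells. Hist1h2ap was at 1523 CPM in cycling macrophages and 1330.4 CPM in cycling carcinoma cells, H2afz at 2025 and 1763 CPM, and Cenpa at 269 and 276 CPM. Stmn1 was at 15.6 CPM in non-cycling macrophages and 63.3 CPM in non-cycling carcinoma cells, and its ratio was 29.4 in the former and 3.55 in the latter. Summed, the replication list was at 1916 against 594 CPM in cycling against non-cycling macrophages and at 2067 against 983 CPM in carcinoma cells. Spindle genes were at 4781 against 1416 CPM in macrophages and 5277 against 1565 CPM in carcinoma cells, and mitotic kinases at 804 against 130 CPM and 807 against 110 CPM. The carcinoma cells were deeper, with a median of 28634 UMIs, and 35 spindle genes reached 50 UMIs there against 8 in macrophages, so that list medians of the cell types rest on different members. With no filter on low counts the macrophage median moved from 3.07 to 16.9 for spindle genes and from 5.47 to 13.8 for mitotic kinases, and the latter was 1.86 without cells that held carcinoma UMIs. No difference between the cell types was tested.

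**Figure D4:**
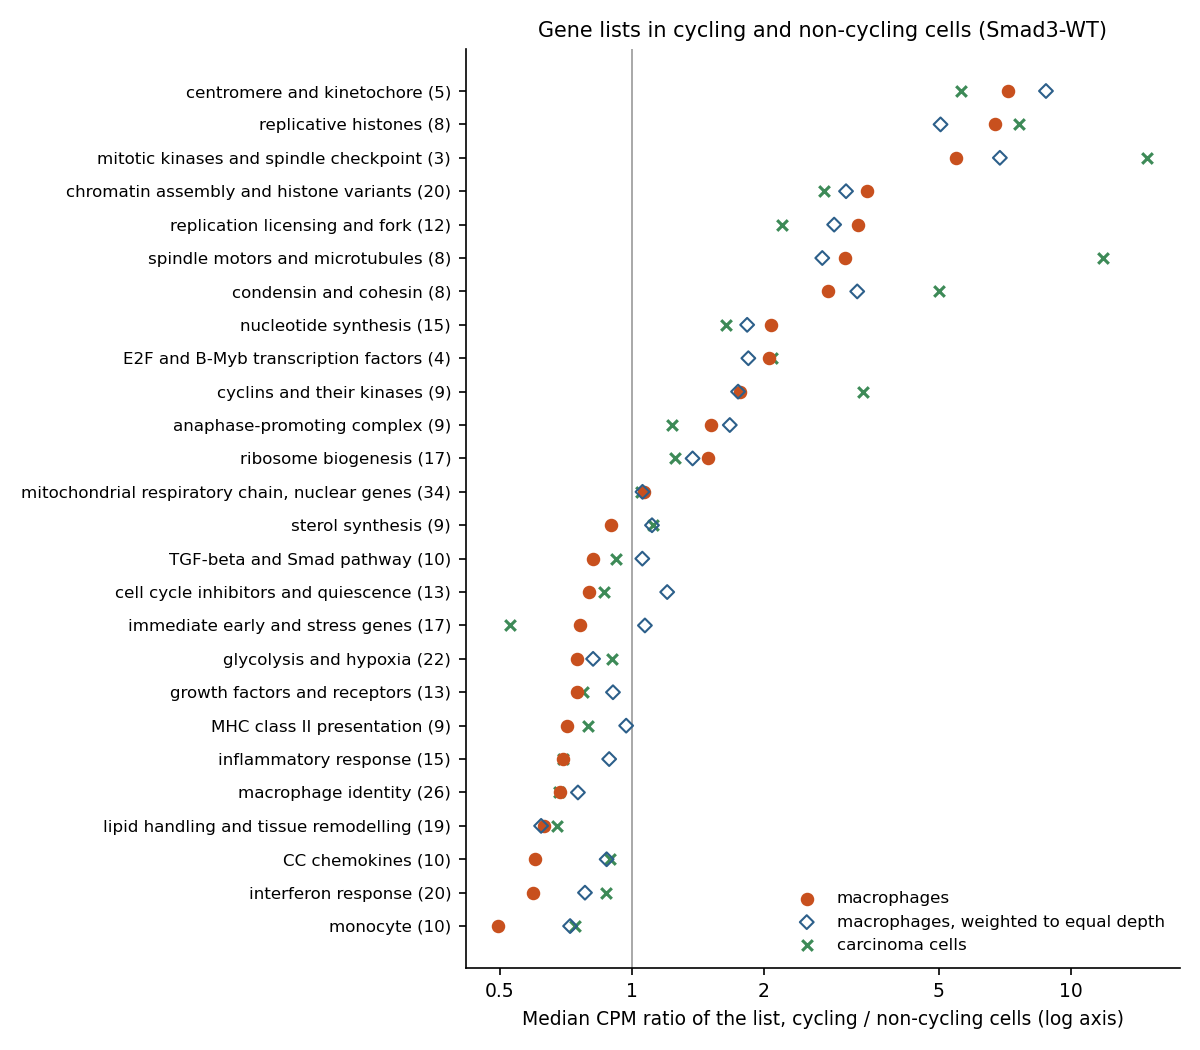
Median ratio of CPM in cycling to CPM in non-cycling cells (horizontal log axis) for gene lists (rows, with the number of macrophage members of at least 50 UMIs in parentheses). Filled circles are Smad3-WT macrophages, open diamonds the same with non-cycling cells weighted to equal depth, and crosses carcinoma cells of the same library, whose medians rest on other members. Replication, chromatin and segregation lists lie above 1 in all of these, and the inhibitor list lies at 0.799 unweighted and 1.20 weighted.

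The single Smad3-KO cycling macrophage carried the cell cycle transcripts seen in the Smad3-WT cells. It had 3 Mki67, 6 Top2a, 8 Birc5 and 0 Ube2c UMIs, 55 C1q UMIs, 78 of Hist1h2ap, 19 of Pclaf, 13 of Stmn1 and 0 of the carcinoma markers. In the 21 non-cycling Smad3-KO macrophages, which held 55169 UMIs in all, Hist1h2ap had 2 UMIs and Pclaf and Stmn1 had 0. The replication lists were at 85.9 and the mitosis lists at 17.5 UMIs per 10000 in the cycling cell, inside the Smad3-WT range. It had 5 Csf1r and 0 Adgre1 UMIs. It also held 20 Irf8, 8 Cd4, 9 Ighm, 3 Siglech and 1 Flt3 UMIs, transcripts known from dendritic and lymphoid cells and chosen after their values were seen, whereas the 50 Smad3-WT cycling cells had no Siglech or Flt3 UMI. In the same order the 21 non-cycling Smad3-KO macrophages together held 11, 1, 9, 2 and 0 UMIs. The macrophage label of this barcode rests on its C1q UMIs, and 1 cell gives no description of cycling macrophages in Smad3-KO tumors.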

How the data were processed

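The authors processed the reads of both libraries with Cell Ranger 3.0.2 (mm10) and deposited 1 matrix of UMI counts for 6630 barcodes. These counts were used as deposited. The deposited workbook also held the authors' average signal per library, used only to check which barcode suffix belongs to which library: averages recomputed from the counts differed by at most 3.58401e-08 over 19114 genes. Its fold changes and p-values hold the authors' own comparisons and were not used. The study states 4116 and 2514 cells, the same as the barcodes in the matrix; its quality limits, with an upper limit of 20000 UMIs, leave 3520 and 2433. The upper limit was an alternative here, because dividing cells were deep. No doublet caller was run.

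UMIs were summed over the cells of a group and divided by their total (CPM). Ratios have exact conditional binomial 95% intervals and shares Clopper-Pearson intervals, which cover counting error only. Each genotype has 1 library, so no test was made. Genes needed 50 UMIs in both groups together, and 0.5 UMIs were added for list medians. The intervals were tested on simulated counts that held counting error alone, the error the intervals assume. That simulation does not show how they hold with the spread between cells. The cells and gene lists were chosen with earlier results of these data known. The text names genes from those of the rule, Smad3, the 15 highest and 15 lowest ratios among genes with 200 UMIs, and of each list the members with the most UMIs or the highest or lowest ratio. Of the 15 lowest, 2 are not reported here. Csf1r, Adgre1 and the dendritic and lymphoid genes of the Smad3-KO cell were added after their values were seen. Alternatives changed the cell limits, the gene filter, the scaling, the depth weighting and the comparison cells. Intervals were computed with scipy 1.17.1 in Python 3.11.15, tables were handled in pandas 2.3.3 and numpy 2.4.6, and plots were drawn with matplotlib 3.10.9. Promoters came from RefSeq (GRCm38.p6), matched by symbol or older symbol.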

Additional observations from a re-analysis of the deposited data

How the results depend on the processing

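The Smad3-WT share of 13.5% was 24.5% when 1 cycling UMI was enough and 3.60% after thinning to 2000 UMIs. The Smad3-KO share of 4% was 0 of 13 cells after thinning and 0 of 24 without shared barcodes. Genes at least 2-fold higher numbered 22 of 1384 with 200 UMIs required and 2483 of 13720 with no filter, and genes at least 2-fold lower 27 and 2629 of as many; the cause was not tested. Under the other alternatives the counts ranged from 142 to 277 higher and from 152 to 262 lower. The median ratio of all genes was -0.03 on the log2 scale as reported, -0.11 with median-of-ratios scaling and 0.06 at equal depth. Of the 185 genes 2-fold higher, 139 stayed so at equal depth and 184 stayed above 1, and of the 191 lower, 105 stayed so and 189 stayed below 1. Of the Smad3-WT list medians recomputed, 382 stayed within the interquartile range of the members and 45 moved beyond it. The carcinoma markers, the only list with a 2-fold median that turned, were at 2.33 and at 0.761 at equal depth. Of 29 lists, 7 had a median on the other side of 1 under some alternative, 6 of them at equal depth: besides the carcinoma markers these were the inhibitors (0.799 to 1.20), immediate early genes (0.763 to 1.07), the TGF-β list (0.817 to 1.06), sterol synthesis (0.897 to 1.11) and fibroblast markers (1.02 to 0.711). Among named genes 1795 values stayed within the counting interval and 205 moved beyond it, and of those with a 2-fold ratio Cav1 turned, from 2.33 to 0.753 at equal depth. Of 111 named genes whose interval excluded 1, 15 were on the other side of 1 under some alternative, 12 at equal depth and 6 without carcinoma marker UMIs. At equal depth they included Zfp36 (0.815 to 1.32), Cxcl2 (0.767 to 1.25), Cdkn1a (0.796 to 1.20) and Tgfbi (0.785 to 1.13); the cause was not tested. Alternatives without carcinoma marker UMIs and without shared barcodes were chosen after seeing the data. Equal-depth weighting of the Smad3-KO cells was not run, since they hold 1 cycling cell. No paired analysis was possible because each genotype has 1 library and the labels give no replicate numbers, and no replicate could be left out. Depth limits the Smad3-KO share, the cell cycle genes below 50 UMIs and any statement on single cells.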
